A study of Mus musculus with 12 samples.

Results

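Genes for the respiratory chain and the ATP synthase were followed in whole mouse lung across 2 diets and 2 exposures. Members were taken by gene symbol, as symbols beginning with Nduf and then a, b, c, s or v, with Uqcr, with Cox4 to Cox8 or with Atp5, the symbols Sdha to Sdhd, and Cyc1. The rule used names only and no measured value, and it found 93 of the 20793 entries in the table. These were 36 subunits of complex I with 7 of its assembly factors, 4 subunits of complex II, 9 of complex III, 17 of complex IV and 15 of the ATP synthase, complex V. Ndufa4 and Ndufa4l2 were kept as a pair of their own, because the Ndufa4 protein was first assigned to complex I and is now placed in complex IV. The remaining 3, Cox7a2l, Atp5s and Atp5sl, match the rule by name without being standard subunits.

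The samples were lungs of C57BL/6J mice, an inbred laboratory strain, in 4 groups of 3. They were fed 60% fat and exposed to more than 95% oxygen, fed 10% fat and exposed to oxygen, fed 60% fat in room air, or fed 10% fat in room air, and the diets lasted 12 weeks. Whether the diet came before or after the exposure, and how long the exposure was, cannot be read from the labels. No label ties a sample to an animal, so the p-values cover the spread among the sequenced samples and may reflect technical spread alone.

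Complexes I to IV pass electrons from NADH and succinate to oxygen in the inner mitochondrial membrane, and complexes I, III and IV pump protons as they do so. Complex V uses the returning protons to make ATP. Most subunits are encoded in the nucleus and are used by nearly every cell, but some subunits of complex IV exist as a widely expressed isoform and as one found mainly in heart and skeletal muscle. In high oxygen the chain is known as one of the sources of superoxide in lung cells. None of the 13 subunits encoded by mitochondrial DNA was found in the table under a symbol beginning with mt-, so they were not analysed here.

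Values were RPKM, reads scaled by transcript length and by sequencing depth, which allow levels to be compared between genes. The spacing of the lowest values gave approximate depths of 20.7 to 28.3 M reads, so members at a few RPKM carry wider counting error. Of the 93 members 90 passed the filter on low values, which asked for 1 RPKM or more in 3 or more libraries. Cox8c and Cox7b2 did not, with values up to 0.155 and 0.304 RPKM in any library. Ndufs5, a complex I subunit, was listed between 0.00104 and 0.0668 RPKM in 11 libraries and at 7.88 RPKM in replicate 2 of 10% fat in room air, and it was not tested. Many genes of the chain have near-identical processed copies elsewhere in the genome, and the sources used here do not say how reads with several matches were counted.

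Lung markers were present in every library, with alveolar type 2 genes summing to 10500 to 17100 RPKM in oxygen and 24630 to 36730 RPKM in room air. Markers of several lung cell types were lower in oxygen. With 60% fat, 7 of 8 alveolar type 2 markers, 4 of 4 club, 6 of 6 ciliated and 3 of 5 endothelial markers were lower in oxygen, and with 10% fat 6 of 8, 3 of 4, 6 of 6 and 2 of 5. Of these lists only the endothelial one held a higher call, Cdh5 with 60% fat. Beside these counts, 36.5% of all tested genes were called lower with 60% fat and 34.2% with 10% fat. The endothelial counts lay closest to these shares. Replicate 2 of each diet in room air stood apart in short transcripts. In replicate 2 of 60% fat in room air, the shorter 45 tested members had a median log2 ratio of 0.37 to the other replicates of its group, and 546 tested genes of the same lengths one of 0.24. The corresponding values in replicate 2 of 10% fat in room air were 0.18 and 0.16. Counts of calls, and the calls that these libraries decide, are also given without them.

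The summed RPKM of the 81 subunit genes of complexes I to V differed little between the groups. It averaged 11430 ± 306 with 60% fat in oxygen and 11840 ± 1698 with 60% fat in room air (SD, n = 3 each). With 10% fat it averaged 11460 ± 337 in oxygen and 10780 ± 955 in room air. In room air the sums spread more widely, and replicate 2 of 60% fat reached 13730, while the other room-air libraries lay between 9735 and 11610. Taken as a share of all RPKM other than Scgb1a1, the club cell secretoglobin, these genes made up 2.2% ± 0.0533 in oxygen and 2.26% ± 0.218 in room air with 60% fat, and 2.21% ± 0.052 and 2.12% ± 0.107 with 10% fat. Differences between the groups were thus smaller than the SD of 60% fat in room air, which replicate 2 widened. They were not all smaller than the SD of 10% fat in room air.

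The sums of complex II did not overlap between exposures in either diet. The 4 genes summed to 362, 334 and 333 RPKM with 60% fat in oxygen, against 283, 314 and 308 RPKM with 60% fat in room air. With 10% fat the sums were 356, 345 and 336 RPKM in oxygen and 265, 289 and 305 RPKM in room air. For the other complexes the room-air libraries spanned or overlapped the oxygen libraries with 60% fat. With 10% fat the complex IV sums lay between 2814 and 2918 RPKM in oxygen and between 2259 and 2741 RPKM in room air, without overlap. An exact test of 3 against 3 libraries cannot go below a p of 0.10, and no p is given for these sums.

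**Figure D1:**
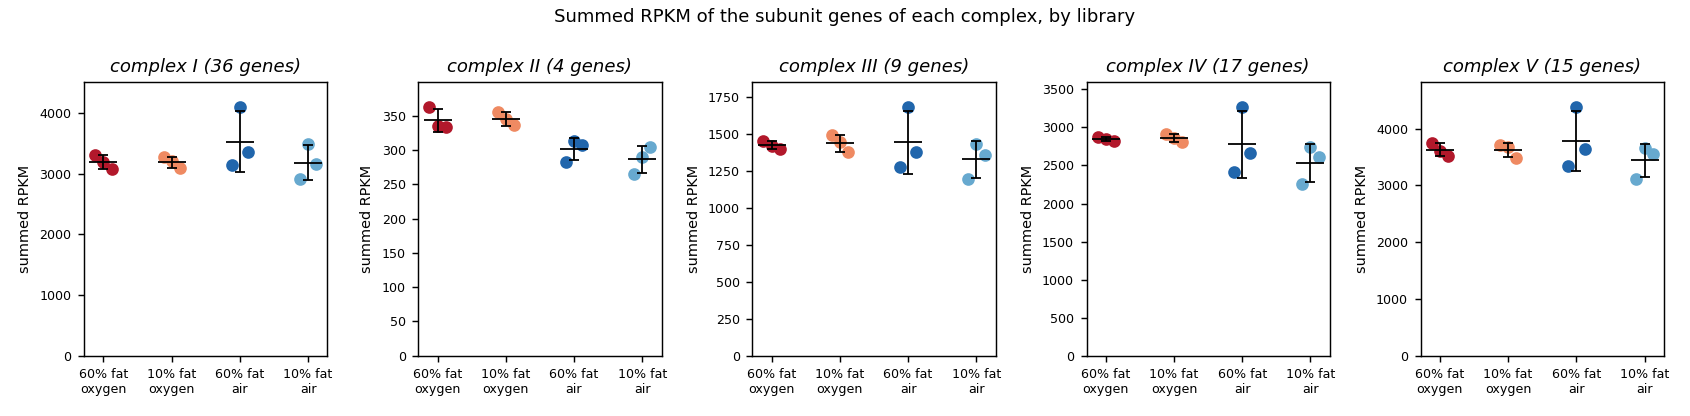
Summed RPKM (linear axis from 0) of the subunit genes of each complex in each library, by group. Points are libraries, bars the mean and SD of 3 libraries; the 60% fat room-air group has 1 library above all others in complexes I, III, IV and V.

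In single genes the oxygen response was mostly small. With 60% fat, 15 of the 90 tested members were higher in oxygen, 22 were lower and 53 did not pass the test (limma with Benjamini-Hochberg adjustment over 13324 genes, adjusted p under 0.05). With 10% fat, 20 were higher, 12 lower and 58 did not pass. The members called were 41.1% with 60% fat and 35.6% with 10% fat, against 62.8% and 59.5% of all tested genes. By direction, 26.3% of all tested genes were called higher and 36.5% lower with 60% fat, and 25.3% and 34.2% with 10% fat. The median log2 change of the members was −0.03 with 60% fat and 0.05 with 10% fat, beside −0.09 and −0.08 over all tested genes. Oxygen and room-air libraries did not overlap in 17 members higher and 25 lower with 60% fat, beside 28.2% and 38.2% of all tested genes, and in 28 members higher and 16 lower with 10% fat, beside 28.7% and 38.8%. In both diets 80 of the 90 members, 88.9%, stayed within a 1.5-fold change, against 58.2% of all tested genes.

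The 2 diets share no library in these comparisons, but both use the same estimate of spread, from all 12 libraries. Same-numbered libraries of the same exposure also deviated together (r of 0.293 to 0.486), so the diets are not independent replicates. In both diets 26 members passed, 14 higher and 12 lower in oxygen, with none in opposite directions. They make up 70.3% of the members called with 60% fat and 81.2% of those called with 10% fat. Among all tested genes 21.6% were higher and 29.8% lower in both diets, 81.8% of the genes called with 60% fat and 86.4% of those called with 10% fat. Higher in both were Ndufv2, Ndufa10, Ndufa12, Ndufaf4, Sdhb, Sdhd, Uqcrc2, Uqcrfs1, Cyc1, Cox5a, Cox6a2, Atp5a1, Atp5b and Atp5c1. Lower in both were Ndufv3, Ndufa3, Ndufb3, Ndufs8, Ndufaf3, Ndufaf7, Cox6b2, Cox7a1, Cox8b, Atp5h, Atp5j and Atp5s.

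The balance of these calls moved with the scaling and with 1 library. Of the members called, 40.5% were higher with 60% fat and 62.5% with 10% fat. Among all tested genes called, 41.9% and 42.5% were higher. After median-ratio scaling the shares were 56.8% and 78.8% of members, beside 49.9% and 49.7% of all genes called, and after quantile normalization 23.4% and 35.1% of members, beside 50.1% and 50.5%. Without replicate 2 of 60% fat in room air, 29 members were higher and 19 lower with 60% fat. The higher share was then 60.4% of members called, beside 39.7% of all genes called.

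Single libraries decided several weaker calls. Of the 37 calls with 60% fat, 7 did not pass when 1 of the 6 libraries was left out, those of Ndufa12, Ndufaf7, Ndufs7, Ndufs8, Sdhd, Uqcrh and Cyc1. Of the 32 calls with 10% fat, 9 did not, those of Atp5h, Atp5j, Ndufa3, Ndufaf7, Ndufs8, Ndufv3, Uqcrc1, Uqcrq and Cyc1. Each of the 6 libraries of a comparison cost a call in turn, and the adjusted p by limma then lay between 0.0531 and 0.193 with 60% fat and between 0.0525 and 0.167 with 10% fat. Without replicate 2 of 10% fat in room air, the log2 changes with 10% fat were −0.20 for Atp5h, −0.24 for Atp5j, −0.34 for Ndufa3, −0.27 for Ndufs8, −0.26 for Ndufv3 and 0.17 for Uqcrc1, none of which passed. Without replicate 2 of 60% fat in room air, Ndufs7, Ndufs8 and Uqcrh had −0.14, −0.26 and −0.16 with 60% fat and did not pass.

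**Figure D2:**
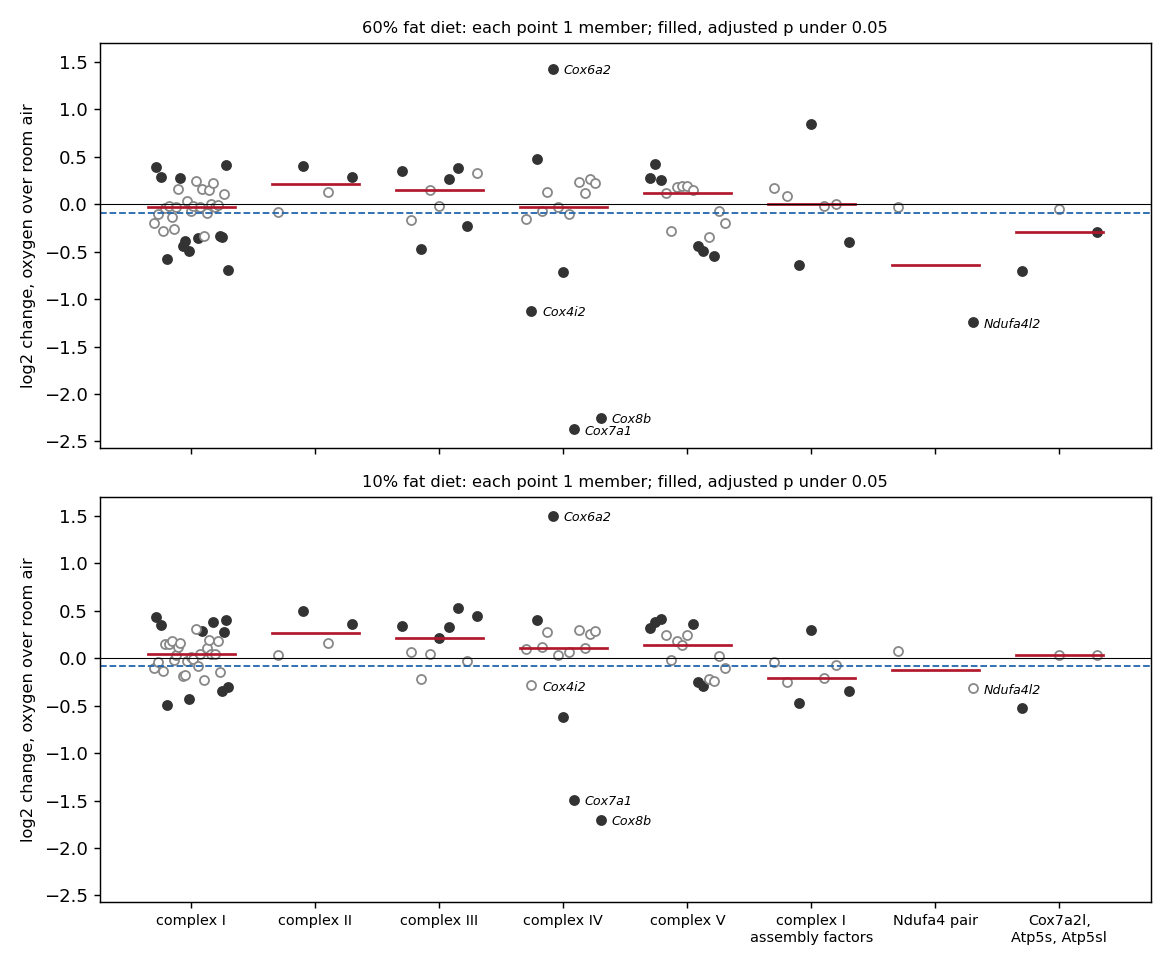
Log2 change (oxygen over room air, on the log2 scale of RPKM plus 0.5) of each tested member, by complex, with 60% fat above and 10% fat below. Filled points passed the test, red lines are the medians of a complex and the dashed line the median of all tested genes; nearly all members lie close to 0, and Cox6a2, Cox7a1 and Cox8b lie far from it.

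The members farthest from 0 were the muscle isoforms of complex IV, and they did not move together. Cox6a2 was higher in oxygen and Cox7a1 and Cox8b were lower, in both diets. Their proteins are small accessory subunits of cytochrome c oxidase, each replacing a widely expressed counterpart, Cox6a1, Cox7a2 or Cox8a, mainly in striated muscle, and Cox7a1 and Cox8b also in mouse brown fat.

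Cox6a2 had 117, 111 and 107 RPKM with 60% fat in oxygen, against 40.1, 45.2 and 38.7 RPKM with 60% fat in room air. With 10% fat it had 105, 111 and 97.9 RPKM in oxygen, against 35.9, 34.5 and 39.6 RPKM in room air. Every oxygen library was thus above every room-air library by a wide margin. The log2 change was 1.43 ± 0.08 (SE) with 60% fat, adjusted p = 6.29e-08 by limma, and 1.5 ± 0.08 with 10% fat, adjusted p = 6.74e-08. Cox6a2 passed under all 18 other settings run in each diet, with log2 changes of 1.35 to 1.68 and of 1.40 to 1.61. Its locus, at 135348948 to 135349880 on chromosome 7 in the table's coordinates (build mm8 or mm9, the sources do not say which), overlaps Itgad, an integrin gene, by 70 bases. Itgad had 0.301 to 7.73 RPKM, and strand-specific counting is not stated.

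Cox7a1 had 2.93, 3.73 and 5.16 RPKM with 60% fat in oxygen, against 22.2, 24.4 and 19.7 RPKM with 60% fat in room air. Lungs of the 10% fat diet had 9.34, 4.72 and 7.93 RPKM in oxygen, against 17.6, 20.9 and 24.3 RPKM in room air. The groups did not overlap in either diet. Cox7a1 fell by 2.37 ± 0.23 on the log2 scale with 60% fat, adjusted p = 2.80e-06 by limma, and by 1.49 ± 0.23 with 10% fat, adjusted p = 0.000126. The difference between these responses, the interaction, was −0.88 ± 0.32 and did not pass (limma adjusted p = 0.377).

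Cox8b had 6.31, 1.89 and 6.43 RPKM with 60% fat in oxygen, against 21.7, 33.1 and 15.9 RPKM with 60% fat in room air. On 10% fat the gene had 8.86, 2.14 and 5.77 RPKM in oxygen, against 17.8, 18.8 and 14.6 RPKM in room air. Here too no oxygen library reached the room-air range. Cox8b fell by 2.25 ± 0.47 with 60% fat, adjusted p = 0.00109 by limma, and by 1.70 ± 0.47 with 10% fat, adjusted p = 0.00719. In the table's coordinates Cox7a1 lies on chromosome 7 from 30969189 to 30971049 and Cox8b on the same chromosome from 148084840 to 148086345.

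The widely expressed counterparts were far more abundant and did not pass in either diet in the deposited values with all libraries kept. Cox6a1 averaged 431 ± 16.1 RPKM with 60% fat in oxygen and 398 ± 71.0 RPKM in room air, a log2 change of 0.13 ± 0.12 (limma adjusted p = 0.359). With 10% fat its log2 change was 0.28 ± 0.12 (limma adjusted p = 0.0586). Cox7a2 had log2 changes of 0.23 ± 0.16 and 0.29 ± 0.16, and Cox8a of 0.22 ± 0.14 and 0.29 ± 0.14, with 60% and 10% fat. Without both room-air libraries numbered 2, all 3 counterparts passed in both diets. The log2 changes with 60% and 10% fat were then 0.27 and 0.37 for Cox6a1, 0.43 and 0.38 for Cox7a2, and 0.37 and 0.35 for Cox8a. With 10% fat, the oxygen libraries of all 3 lay above their room-air libraries. All 3 also passed in both diets after the correction for transcript length given below.

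As a share of the RPKM of both isoforms, Cox6a2 made up 20.6% ± 0.1 with 60% fat in oxygen and 9.50% ± 0.928 in room air, and 19.6% ± 0.446 and 9.44% ± 1.35 with 10% fat. Cox7a1 made up 2.57% ± 0.844 in oxygen and 14.8% ± 3.1 in room air with 60% fat, and 4.67% ± 1.47 and 14.6% ± 1.24 with 10% fat. For Cox8b the shares were 1.03% ± 0.538 and 5.45% ± 1.34 with 60% fat, and 1.15% ± 0.65 and 4.26% ± 0.989 with 10% fat. Oxygen and room-air libraries did not overlap in any of these shares.

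**Figure D3:**
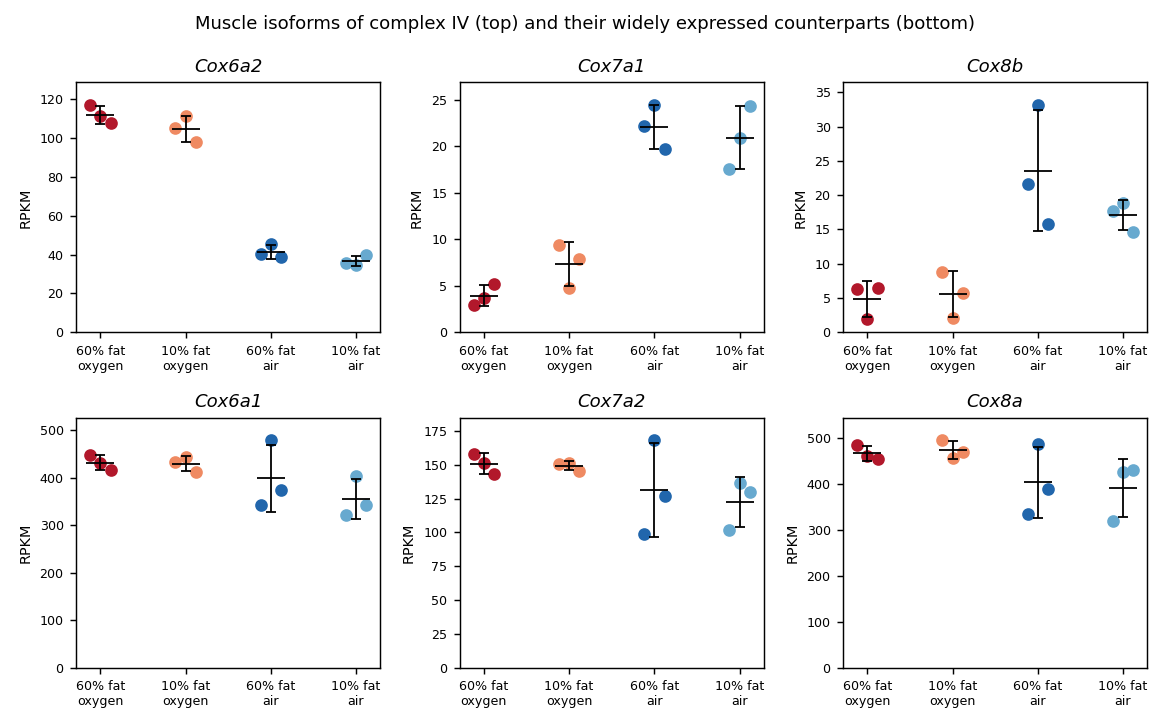
RPKM (linear axis from 0) of the muscle isoforms Cox6a2, Cox7a1 and Cox8b, above, and of Cox6a1, Cox7a2 and Cox8a, below, in each library. Points are libraries, bars the mean and SD of 3 libraries; Cox6a2 is higher and Cox7a1 and Cox8b lower in both oxygen groups than in their room-air groups, while the counterparts overlap between exposures with 60% fat and not with 10% fat.

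Heart muscle genes moved with Cox7a1 and Cox8b. All 14 cardiac markers, among them Actc1, Myh6 and Tnni3, were lower in oxygen with 60% fat, with a median log2 change of −3.13, and 13 of 14 with 10% fat, with a median of −2.40. Their summed level was 38.9 to 85.9 RPKM in oxygen and 611 to 684 RPKM in room air with 60% fat, and 66.0 to 138 RPKM and 428 to 565 RPKM with 10% fat. None of the 14 was below 0.5 RPKM in every library. Of the 10 skeletal muscle markers, Myh1, Myh2, Myh4, Actn3 and Pvalb were below 0.5 RPKM in every library, and the list summed to 4.59 to 11.1 RPKM in oxygen and 10.2 to 16.2 RPKM in room air. Of its 5 tested members 2 were lower with 60% fat, and 2 were lower and 1 higher with 10% fat, with median log2 changes of 0.09 and 0.41. Ckm, the muscle creatine kinase, which heart also expresses, had log2 changes of −3.01 and −2.38, and Acta1, skeletal muscle actin, had 0.82, which did not pass, and 1.56, which did. The part of heart muscle in the Cox7a1 and Cox8b results was not tested, and in whole lung fewer cells of a type and less RNA per cell cannot be told apart.

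Cox6a2 ran against the cardiac markers, while the skeletal muscle list was mixed. Of the 8 brown fat markers, Ucp1, Elovl3, Otop1 and Zic1 were below 0.5 RPKM in every library. The list summed to 17.0 to 18.8 RPKM in oxygen and 7.91 to 9.76 RPKM in room air, and of its 4 tested members 3 were higher and 1 lower in each diet. Cidea, a lipid droplet protein, had log2 changes of 1.90 and 1.97, and Prdm16, a transcription factor of brown fat cells, of −0.54 and −0.61. Of the 7 white fat markers, 3 were lower and 1 higher with 60% fat, and 4 were lower and 1 higher with 10% fat. Of 5 smooth muscle markers only Tagln passed, higher in both diets. Beside the marker lists here and above, 26.3% of all tested genes were called higher and 36.5% lower with 60% fat. With 10% fat the shares were 25.3% and 34.2%. Of 6 alveolar macrophage markers, 2 were higher and 3 lower with 60% fat, and 3 were lower with 10% fat. The part of these cell types in the Cox6a2 result was not tested.

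Within groups the deviations of Cox7a1 and Cox8b were more alike than those of Cox6a2 and either of them. Across the 12 libraries, deviations from the group means had a Pearson r of 0.574 between Cox7a1 and Cox8b, of −0.154 between Cox6a2 and Cox7a1 and of −0.0323 between Cox6a2 and Cox8b. The genes closest to the mean deviation of all 3 isoforms were Mbl1 (r = 0.941), Tmem79 (0.923), Htra1 (0.904), Fbxl16 (0.895) and 2310036O22Rik (0.894). Cox7a1 and Cox8b were not among the 5 genes nearest to each other. Those had r of 0.885 to 0.966 with Cox7a1 and of 0.912 to 0.937 with Cox8b. These are descriptions over 12 libraries that share 4 group means, picked from all tested genes.

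RefSeq promoter windows (GRCm38.p6, 250 bases before to 50 after the start) were matched to 76 of the 93 members. Shown are the 150 bases before the start of the muscle isoforms with a window, Cox7a1 and Cox8b, and of the 3 counterparts. Cox6a2 had no window. The stretches were chosen because Cox7a1 and Cox8b were lower in oxygen while the counterparts did not pass in the deposited values. The counterparts did pass in both diets without the room-air libraries numbered 2 and after length correction. Each stretch runs 5′ to 3′ on the gene's strand, and capitals mark matches to the motifs named below.
Cox7a1: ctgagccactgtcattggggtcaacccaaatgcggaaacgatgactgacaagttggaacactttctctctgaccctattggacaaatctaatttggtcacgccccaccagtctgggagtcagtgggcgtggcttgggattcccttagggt
Cox8b: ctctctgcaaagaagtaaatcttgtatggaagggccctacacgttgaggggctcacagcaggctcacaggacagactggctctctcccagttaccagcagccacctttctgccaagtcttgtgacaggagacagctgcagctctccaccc
Cox6a1: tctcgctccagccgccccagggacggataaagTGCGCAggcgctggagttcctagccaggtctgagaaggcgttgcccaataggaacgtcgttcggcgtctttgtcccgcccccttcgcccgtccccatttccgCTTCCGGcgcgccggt
Cox7a2: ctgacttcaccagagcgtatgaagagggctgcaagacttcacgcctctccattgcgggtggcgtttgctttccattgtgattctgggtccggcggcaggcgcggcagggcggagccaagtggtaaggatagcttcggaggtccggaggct
Cox8a: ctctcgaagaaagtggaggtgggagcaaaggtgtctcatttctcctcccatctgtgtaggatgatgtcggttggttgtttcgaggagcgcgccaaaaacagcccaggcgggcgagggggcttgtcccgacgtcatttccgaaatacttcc
They lie at chr7:30184021-30184170 (plus strand, Cox7a1), chr7:140900447-140900596 (minus strand, Cox8b), chr5:115348959-115349108 (minus strand, Cox6a1), chr9:79759854-79760003 (minus strand, Cox7a2) and chr19:7217617-7217766 (minus strand, Cox8a). The windows of Cox7a1 and Cox8b held 4 and 1 CG dinucleotides, and those of Cox6a1, Cox7a2 and Cox8a held 18, 11 and 10, beside a median of 4 over all RefSeq promoters at the same positions.

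Motifs were searched on both strands, without regard to overlap between them. They were TGCGCA, the core of NRF1 sites, CCGGAAG for ETS factors such as GABP, AAGGTCA for ERR, AAGATGG for YY1 and TATAAA for the TATA box. Cox6a1 held one NRF1 and one ETS match in the stretch shown, and the other 4 stretches held none of these letters. Over whole 300-base windows, the NRF1 letters stood in 18 of 66 subunit promoters, 27.3%, and in 8.06% of 27025 promoters in all. The ETS letters stood in 22.7% and 9.12%, the ERR letters in 12.1% and 4.66%, the YY1 letters in 15.2% and 6.48%, and the TATA letters in 10.6% and 14.2%. These are matches of letters and do not show binding. The 27025 promoters were neither limited to tested genes nor matched for CG content, and the NRF1 and ETS letters contain CG.

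Of 10 subunits picked by hand for their roles in electron transfer and ATP synthesis, 6 were higher and none lower with 60% fat, and 8 were higher and none lower with 10% fat. Those without a call in 60% fat were Ndufv1, Ndufs1, Sdha and Uqcrc1. Among all tested genes 26.3% were called higher and 36.5% lower with 60% fat, and 25.3% and 34.2% with 10% fat. The selection was made with earlier results of these data known. Ndufs7 and Ndufs8, iron-sulfur subunits of complex I outside this selection, went the other way: Ndufs8 fell by 0.35 in both diets, and Ndufs7 fell by 0.34 with 60% fat.

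In complex I, the NADH-oxidizing and quinone-reducing entry point, 4 of 35 tested subunits were higher and 8 lower with 60% fat, and 6 were higher and 4 lower with 10% fat. The shares of all tested genes were 26.3% higher and 36.5% lower with 60% fat, and 25.3% and 34.2% with 10% fat. Ndufv2, an iron-sulfur subunit of the NADH-binding module, had 61.8, 63.3 and 57.5 RPKM with 60% fat in oxygen, against 44.5, 43.6 and 48.3 RPKM with 60% fat in room air. In the 10% fat groups it had 61.2, 56.9 and 55.6 RPKM in oxygen, against 40.5, 44.3 and 45.9 RPKM in room air. Its oxygen and room-air libraries did not overlap, and the log2 changes were 0.42 ± 0.07 (limma adjusted p = 0.000387) and 0.41 ± 0.07 (limma adjusted p = 0.000507). The accessory subunit Ndufa10 was higher by a similar amount, with log2 changes of 0.39 and 0.43.

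Other accessory subunits went the other way. Ndufv3, a small subunit of the same NADH-binding module, had 47.9, 43.9 and 49.3 RPKM with 60% fat in oxygen, against 73.2, 84.5 and 71.7 RPKM with 60% fat in room air. It fell by 0.69 ± 0.10 there (limma adjusted p = 8.91e-05) and by 0.30 ± 0.10 with 10% fat (limma adjusted p = 0.0223). Ndufb3 fell by 0.49 ± 0.09 and 0.43 ± 0.09, and Ndufa3 by 0.58 ± 0.17 and 0.49 ± 0.17. Ndufs1, the largest iron-sulfur subunit, did not pass in either diet, with log2 changes of 0.15 with 60% fat and 0.20 with 10% fat. Ndufv1, which binds the flavin and NADH, had log2 changes of 0.10 ± 0.08 with 60% fat, which did not pass, and 0.27 ± 0.08 with 10% fat (limma adjusted p = 0.0106). After quantile normalization complex I had 3 higher and 14 lower calls with 60% fat and 4 and 8 with 10% fat.

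Of the assembly factors Ndufaf1 to Ndufaf7, which help build complex I without staying in it, Ndufaf4 was higher and Ndufaf3 and Ndufaf7 were lower in both diets. Ndufaf4 had 8.11, 8.14 and 7.56 RPKM with 60% fat in oxygen, against 4.38, 4.24 and 3.98 RPKM with 60% fat in room air. Under 10% fat the values were 6.72, 6.85 and 6.40 RPKM in oxygen, against 5.67, 4.99 and 5.30 RPKM in room air. Its log2 changes were 0.85 ± 0.08 (limma adjusted p = 4.14e-06) and 0.30 ± 0.08 (limma adjusted p = 0.00882). Ndufaf3 fell by 0.64 ± 0.13 and 0.47 ± 0.13.

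In complex II, succinate dehydrogenase, Sdhb and Sdhd were higher in both diets and Sdha and Sdhc did not pass. Sdhb, the iron-sulfur subunit, had 107, 97.7 and 97.0 RPKM with 60% fat in oxygen, against 70.9, 80.9 and 76.6 RPKM with 60% fat in room air. The 10% fat libraries had 105, 105 and 96.4 RPKM in oxygen, against 68.4, 73.7 and 74.6 RPKM in room air. No room-air library reached the oxygen range, and the log2 changes were 0.40 ± 0.07 (limma adjusted p = 0.000509) and 0.50 ± 0.07 (limma adjusted p = 0.000104). Sdhd, which anchors the enzyme in the membrane, had log2 changes of 0.29 ± 0.10 (limma adjusted p = 0.0239) and 0.36 ± 0.10. Sdha, the flavin-carrying catalytic subunit, had −0.08 ± 0.07 and 0.03 ± 0.07, and Sdhc, the other membrane anchor, 0.13 ± 0.10 and 0.16 ± 0.10. After quantile normalization Sdhd did not pass with 60% fat.

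In complex III, which passes electrons from quinol to cytochrome c, 3 of 9 subunits were higher and 2 lower with 60% fat, and 5 were higher and none lower with 10% fat. Among all tested genes 26.3% were higher and 36.5% lower with 60% fat, and 25.3% and 34.2% with 10% fat. Uqcrfs1, the Rieske iron-sulfur protein, had 68.9, 70.1 and 74.5 RPKM with 60% fat in oxygen, against 47.6, 58.7 and 57.9 RPKM with 60% fat in room air. With 10% fat it had 75.9, 64.3 and 75.2 RPKM in oxygen, against 44.5, 49.2 and 55.1 RPKM in room air. The libraries did not overlap, and the log2 changes were 0.38 ± 0.10 (limma adjusted p = 0.00652) and 0.53 ± 0.10 (limma adjusted p = 0.000807).

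Cyc1, cytochrome c1, had log2 changes of 0.35 ± 0.11 (limma adjusted p = 0.012) and 0.34 ± 0.11 (limma adjusted p = 0.0153). Uqcrc2, a core protein whose locus overlaps Pdzd9 by 229 bases, had 0.27 ± 0.07 and 0.33 ± 0.07. Its partner Uqcrc1 had −0.02 ± 0.08, which did not pass, and 0.21 ± 0.08 (limma adjusted p = 0.0433). The small subunit Uqcr11 fell by 0.48 ± 0.14 with 60% fat (limma adjusted p = 0.00837) and had −0.22 ± 0.14 with 10% fat, which did not pass. Uqcrq had 0.33 ± 0.16 with 60% fat, which did not pass, and 0.44 ± 0.16 with 10% fat (limma adjusted p = 0.0307). After quantile normalization the complex had 2 higher and 3 lower calls in each diet.

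In complex IV, the oxidase that reduces oxygen to water, 2 of 15 tested subunits were higher and 4 lower with 60% fat, and 2 were higher and 3 lower with 10% fat. The corresponding shares of all tested genes were 26.3% and 36.5% with 60% fat, and 25.3% and 34.2% with 10% fat. Apart from Cox6a2 only Cox5a was higher, in both diets. Cox5a, a structural subunit with no isoform, had 171, 179 and 173 RPKM with 60% fat in oxygen, against 112, 138 and 126 RPKM with 60% fat in room air. Lungs of the 10% fat diet had 168, 167 and 148 RPKM in oxygen, against 105, 133 and 130 RPKM in room air. Its log2 changes were 0.48 ± 0.10 (limma adjusted p = 0.00144) and 0.40 ± 0.10 (limma adjusted p = 0.00492). Cox6b2, known as the testis isoform of Cox6b1, fell by 0.72 ± 0.17 and 0.62 ± 0.17.

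Subunit IV also has 2 isoforms, and the minor one differed. Cox4i2 is the isoform enriched in lung and known to be induced by low oxygen in cultured cells. It had 31.5, 42.9 and 41.3 RPKM with 60% fat in oxygen, against 89.1, 100 and 66.2 RPKM with 60% fat in room air. On 10% fat the gene had 42.3, 52.3 and 47.8 RPKM in oxygen, against 77.8, 56.5 and 43.8 RPKM in room air. The groups were separate with 60% fat and overlapped with 10% fat. Cox4i2 fell by 1.12 ± 0.20 with 60% fat (limma adjusted p = 0.000382) and had −0.29 ± 0.20 with 10% fat, which did not pass (limma adjusted p = 0.239). Cox4i1, the common isoform, had −0.16 ± 0.10 and 0.10 ± 0.10 and did not pass in either diet.

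Ndufa4l2, the paralog of Ndufa4 and a known target of the hypoxia-inducible factor HIF1, resembled Cox4i2. It had 13.2, 12.7 and 14.9 RPKM with 60% fat in oxygen, against 36.4, 36.6 and 26.5 RPKM with 60% fat in room air. In the 10% fat groups it had 16.8, 21.2 and 17.7 RPKM in oxygen, against 29.7, 22.2 and 18.7 RPKM in room air. It fell by 1.24 ± 0.17 with 60% fat (limma adjusted p = 3.83e-05) and had −0.31 ± 0.17 with 10% fat, which did not pass (limma adjusted p = 0.117). Deviations of Cox4i2 and Ndufa4l2 from their group means had an r of 0.874 over the 12 libraries. Ndufa4l2 overlaps Shmt2 by 33 bases, and Shmt2 had 8.62 to 25.9 RPKM. Ndufa4 itself had log2 changes of −0.03 ± 0.13 and 0.07 ± 0.13.

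In complex V, 3 of 15 subunits were higher and 3 lower with 60% fat, and 4 were higher and 2 lower with 10% fat. Of all tested genes, 26.3% were higher and 36.5% lower with 60% fat, and 25.3% and 34.2% with 10% fat. The α, β and γ subunits of the catalytic head, Atp5a1, Atp5b and Atp5c1, were higher in both diets. Atp5b, which carries the catalytic sites, had 499, 483 and 465 RPKM with 60% fat in oxygen, against 342, 387 and 354 RPKM with 60% fat in room air. Under 10% fat the values were 474, 453 and 443 RPKM in oxygen, against 329, 355 and 371 RPKM in room air. Its oxygen libraries lay above every room-air library, with log2 changes of 0.42 ± 0.08 (limma adjusted p = 0.000465) and 0.38 ± 0.08 (limma adjusted p = 0.00107).

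Atp5a1 had log2 changes of 0.28 ± 0.06 and 0.32 ± 0.06, and Atp5c1 of 0.25 ± 0.06 and 0.41 ± 0.06. Atp5h and Atp5j, subunits of the peripheral stalk, fell by 0.44 ± 0.08 and 0.50 ± 0.10 with 60% fat and by 0.25 ± 0.08 and 0.29 ± 0.10 with 10% fat. Atp5j overlaps Gabpa by 452 bases, and Gabpa had 11.1 to 17.4 RPKM. Atp5k, a small membrane subunit, fell by 0.55 ± 0.12 with 60% fat (limma adjusted p = 0.00178) and had −0.24 ± 0.12 with 10% fat, which did not pass. After quantile normalization Atp5a1 did not pass in either diet, Atp5b did not pass with 10% fat and Atp5c1 did not pass with 60% fat, with a log2 change of 0.09.

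Transcript length moved with these calls. Of the 45 tested members with the shorter transcripts, 3 were higher and 14 lower with 60% fat, and 5 were higher and 7 lower with 10% fat. Of the 45 with the longer transcripts, 12 were higher and 8 lower with 60% fat, and 15 were higher and 5 lower with 10% fat. Of all tested genes in the shorter range, 85 of 546 were higher and 224 lower with 60% fat, and 99 and 164 with 10% fat. In the longer range, 3401 of 12693 were higher and 4612 lower with 60% fat, and 3247 and 4367 with 10% fat. Across the 90 members, which share the same libraries, log2 change and log2 length had an r of 0.377 with 60% fat and 0.302 with 10% fat, beside 0.084 and 0.0179 over 13239 tested genes. The members span a lower range of lengths than these genes. After a correction of each library for transcript length, added after seeing the data, 43 members were higher and 15 lower with 60% fat, and 38 were higher and 10 lower with 10% fat. The higher calls were then 74.1% and 79.2% of the members called, beside 51.3% and 51.1% of all genes called. Under every setting run, the length correction included, Cox6a2, Cox5a, Sdhb, Uqcrfs1, Ndufv2, Ndufa10 and Ndufaf4 passed as higher in both diets. Cox7a1, Cox8b, Ndufb3, Cox6b2, Ndufaf3 and Atp5s passed as lower in both diets under every setting.

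**Figure D4:**
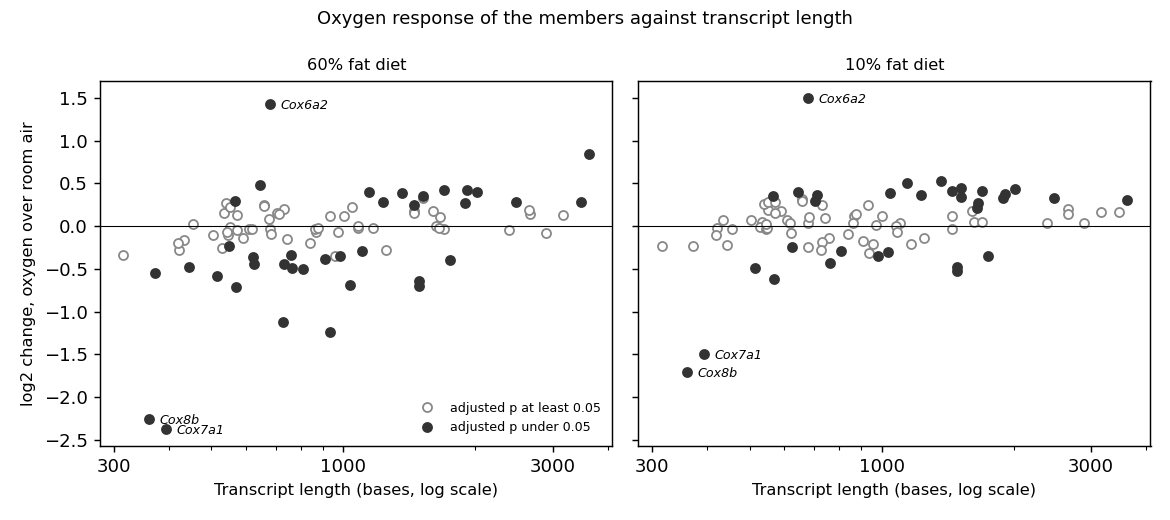
Log2 change (oxygen over room air) of each tested member against the length of its transcript in bases, on a log axis, with 60% fat on the left and 10% fat on the right. Filled points passed the test; of the 45 shorter members 3 were higher and 14 lower with 60% fat, and of the 45 longer ones 12 were higher and 8 lower.

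The diet comparisons called no member. In oxygen, 60% against 10% fat gave no call among the 90 members (3 at an unadjusted p under 0.05), a median log2 difference of 0.00 and 45 members with a positive difference, beside 7789 of 13324 genes. Over all tested genes 0.00751% were called and 8.08% had an unadjusted p under 0.05. The diets did not overlap in 4 members higher and 7 lower, beside 11.6% and 6.58% of all tested genes. In room air there was also no call (10 at an unadjusted p under 0.05), beside 0.15% of all tested genes called and 12.2% at that unadjusted p, but 81 of the 90 differences were positive, with a median of 0.12. Over all tested genes 7462 of 13324 were positive, with a median of 0.03. After the correction for transcript length the members' median was −0.002. The diets did not overlap in 8 members higher and 1 lower, beside 8.61% and 5.43%. Without replicate 2 of 60% fat in room air, the median of the members was 0.03. For the interaction no member passed (7 at an unadjusted p under 0.05), beside 0.0375% of all tested genes called and 10.3% at that unadjusted p, and the median was −0.10. Without the same library it was −0.01.

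Libraries of 1 exposure with the same replicate number deviated together, and a fit with that number as a block within each exposure called a few members. In room air it called Cox4i2 (log2 difference 0.54 ± 0.11, limma adjusted p = 0.0354), Ndufa4l2 (0.50 ± 0.11, limma adjusted p = 0.0448) and Ndufa6 (0.23 ± 0.05, limma adjusted p = 0.0447), all higher with 60% fat than with 10% fat, beside 3.5% of all tested genes called. The values without the block were adjusted p = 0.306, 0.245 and 0.388 by limma. For the interaction the block called Cox4i2 (−0.84 ± 0.15, limma adjusted p = 0.0409), Ndufa4l2 (−0.93 ± 0.15, limma adjusted p = 0.0345) and Ndufaf4 (0.55 ± 0.11, limma adjusted p = 0.0465), beside 1.82% of all tested genes called. The first pair fell more in oxygen with 60% fat than with 10% fat, and Ndufaf4 rose more. Without the block these were adjusted p = 0.343, 0.218 and 0.164 by limma. In oxygen the block called no member, beside 0.766% of all tested genes. Cardiac markers summed to 611 to 684 RPKM with 60% fat and 428 to 565 RPKM with 10% fat in room air, without overlap, and their part in these values was not tested.

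Cox7a2l, not a standard subunit, was among the 3 members with the smallest p for the interaction without the block. It had 156, 174 and 173 RPKM with 60% fat in oxygen, against 200, 216 and 201 RPKM with 60% fat in room air. The 10% fat libraries had 187, 178 and 192 RPKM in oxygen, against 177, 188 and 177 RPKM in room air. It fell by 0.30 ± 0.07 with 60% fat (limma adjusted p = 0.00265) and had 0.04 ± 0.07 with 10% fat. The interaction was −0.34 ± 0.10 and did not pass (limma adjusted p = 0.277 without the block and 0.079 with it).

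**Figure D5:**
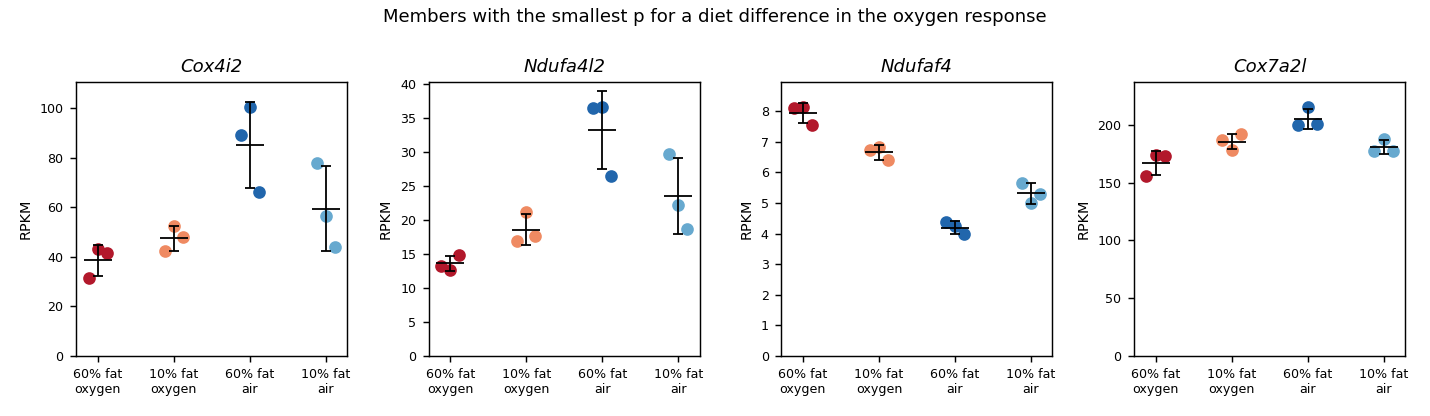
RPKM (linear axis from 0) of Cox4i2, Ndufa4l2, Ndufaf4 and Cox7a2l in each library, by group. Points are libraries, bars the mean and SD of 3 libraries; within room air Cox4i2 and Ndufa4l2 average higher and Ndufaf4 lower with 60% fat than with 10% fat, and in oxygen the order is turned.

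Of 15 genes for mitochondrial protein import and chaperones, 10 were higher and 1 lower with 60% fat, and 9 were higher and 3 lower with 10% fat, with median log2 changes of 0.57 and 0.45. Beside this list and those below, 26.3% of all tested genes were called higher and 36.5% lower with 60% fat. With 10% fat these shares were 25.3% and 34.2%. The lists were drawn up with earlier results of these data known. Hspa9, the mitochondrial Hsp70, averaged 281 RPKM in oxygen and 62.6 RPKM in room air with 60% fat, and 245 and 76.5 RPKM with 10% fat, log2 changes of 2.16 ± 0.08 and 1.68 ± 0.08. Timm23, the channel of the inner membrane translocase, had log2 changes of 1.03 ± 0.06 and 0.81 ± 0.06, and Timm17a, which sits beside it, 0.89 ± 0.06 and 0.86 ± 0.06. Of 21 genes of the citric acid cycle and pyruvate dehydrogenase, 12 were higher and 4 lower with 60% fat, and 11 were higher and 3 lower with 10% fat. Idh3a, a catalytic subunit of isocitrate dehydrogenase, had 0.65 ± 0.07 and 0.60 ± 0.07, Cs, citrate synthase, 0.47 and 0.38, and Mpc1, a pyruvate carrier, 0.58 and 0.57. Fh1, fumarate hydratase, fell by 0.47 and 0.45.

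Of 15 membrane carriers and structural proteins, 9 were higher and 1 lower with 60% fat, and 9 were higher and 2 lower with 10% fat. Slc25a3, the phosphate carrier that feeds the ATP synthase, had 0.63 ± 0.06 in both diets, and Ucp2, an uncoupling protein homolog, 0.55 ± 0.11 and 1.08 ± 0.11. Ckmt2, the muscle form of mitochondrial creatine kinase, fell by 3.30 ± 0.39 with 60% fat and fell by 2.28 ± 0.39 with 10% fat. Of 14 tested regulators of mitochondrial biogenesis, 6 were higher and 4 lower with 60% fat, and 5 and 4 with 10% fat. Myc, a transcription factor of growth in general, had 3.16 ± 0.14 and 2.80 ± 0.14, Pprc1, a coactivator related to Ppargc1a, 0.88 ± 0.12 and 0.42 ± 0.12, and Peo1, the mitochondrial DNA helicase, −0.50 and −0.75.

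Assembly factors were mixed. Of 9 complex I factors outside the name rule, 1 was higher and 4 lower in each diet. Tmem126a was the higher one, with log2 changes of 0.85 ± 0.09 and 0.62 ± 0.09, and Aifm1, with −0.52 and −0.48, and Timmdc1, with −0.50 and −0.61, were among the lower. Of 31 tested factors for complexes II to V, 6 were higher and 8 lower with 60% fat, and 4 were higher and 13 lower with 10% fat. Cox10, which makes heme for complex IV, had 0.96 ± 0.10 and 1.0 ± 0.10, and Coa4 had −1.92 ± 0.23 and −1.91 ± 0.23. Of 10 tested electron carriers and ATP synthase partners, 2 were higher and 4 lower with 60% fat, and 1 and 3 with 10% fat. Cycs, cytochrome c, was higher in both, with 0.47 and 0.24, while Atpif1, the inhibitor of the ATP synthase, fell by 0.72 ± 0.12 and 0.51 ± 0.12, and Etfb, which brings in electrons from fatty acid oxidation, by 0.84 ± 0.10 and 0.38 ± 0.10. The diet comparisons called no gene of any of these lists.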

How the data were processed

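Total RNA from lung was sequenced in 12 samples, as libraries made by standard Illumina protocols, per the labels. The authors deposited RPKM values, 1 per gene and library, with symbols and positions. The submitters' processing notes name bcl2fastq 2.19, TopHat2 2.0.11 and, with no role, the builds mm8 and mm9. The program that made the RPKM and its treatment of strand are not given in the sources used here.

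The table has 20793 entries. Those with a low-data mark (208) were dropped, and 85 failed estimates in 26 other entries were treated as missing. Values were used as log2(RPKM + 0.5), so fold changes of low genes are understated. Tested were 13324 entries with 1 RPKM or more in 3 or more libraries and a minimum of 2 values per group. limma 3.58.1 (R 4.3.3) fitted 4 group means to all 12 libraries with a variance trend (8 residual and 4.26 prior degrees of freedom), two-sided, with Benjamini-Hochberg adjustment at 0.05. It was tested on simulated data with independent errors and few changed genes. Those data lacked the many changes of the oxygen comparisons and the shared deviations of same-numbered libraries. Errors are SD for levels and SE for log2 changes. RPKM carries no counts, so no count test was run. Rough depths assumed a length offset of 250 bases, chosen on these data, and transcript lengths came from the GENCODE M21 transcripts.

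Same-numbered libraries of 1 exposure had deviations from group means that correlated at r of 0.293 to 0.486 (6 pairs), so the number was taken to pair diets within an exposure, a hint from the data that the labels do not state. Across exposures r lay between −0.131 and 0.22 (12 pairs).

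The members, the lists of pathway and marker genes and the rule for named genes were chosen with earlier results of these data known. Always named were the muscle isoforms, their counterparts, Cox4i1, Cox4i2 and 10 subunits with central roles; a further always-named gene is not reported here. Added were, per complex and oxygen comparison, the 3 smallest p and the 2 largest called changes, per diet comparison the called or 3 smallest p, per list the 2 smallest p, and the 5 genes nearest the muscle isoforms. Ndufs5, Cox7b2, Cox8c, the assembly factors, Ndufa4, Ndufa6, Cox6b2, Ndufs7, Ndufs8, Cycs, Fh1, the named markers and the genes that overlap a member were named after their values were seen. Alternatives changed the pseudocount, filter, scaling, trend, libraries and block. Python 3.11.15 made the summaries, with pandas 2.3.3 and numpy 2.4.6, and matplotlib 3.10.9 the figures.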

Additional observations from a re-analysis of the deposited data

Results flagged for a closer look

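Cox4i2, Ndufa4l2 and Ndufaf4 passed a test for a difference in oxygen response between the diets, the interaction, only with the replicate number as a block. The block was taken from correlated deviations in these same data, and the labels do not state it. With it, 1.82% of all tested genes were called. The blocked interaction, the log2 change with 60% fat minus that with 10% fat, was −0.839 for Cox4i2 (limma adjusted p = 0.0409), −0.929 for Ndufa4l2 (limma adjusted p = 0.0345) and 0.546 for Ndufaf4 (limma adjusted p = 0.0465). None passed without the block (limma adjusted p = 0.343, 0.218 and 0.164). All 3 libraries of 60% fat in oxygen were below all 3 of 60% fat in room air for Cox4i2 and Ndufa4l2, and all were above for Ndufaf4. With 10% fat, the oxygen libraries overlapped those in room air for Cox4i2 and Ndufa4l2 and lay above them for Ndufaf4. Groups of 3 are too small for the check on single samples.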

How the results depend on the processing

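Called higher with 60% fat were 15 members in the deposited values, 13 to 29 when a single library was left out (29 without replicate 2 of 60% fat in room air), 29 without both room-air libraries numbered 2 and 43 after length correction. Called lower there were 22, 19 to 29 with a library left out and 36 after quantile normalization. With 10% fat, 20 were higher (17 to 22 with a library left out, 13 after quantile normalization, 38 after length correction) and 12 lower (6 to 13 with a library left out, 6 without replicate 3 in oxygen and 7 without replicate 2 in room air, 7 after median-ratio scaling, 24 after quantile normalization). The median of the members lay between −0.08 and 0.047 with 60% fat and between 0.022 and 0.112 with 10% fat when a library was left out. It was 0.189 with 60% fat and 0.16 with 10% fat after length correction, 0.065 and 0.126 after median-ratio scaling and −0.099 and −0.08 after quantile normalization (−0.029 and 0.045 in the deposited values), and −0.002 for the diet in room air after length correction. With a library left out, the medians were 0.032 to 0.202 for the diet in room air, −0.028 to 0.031 for the diet in oxygen and −0.184 to −0.013 for the interaction, and the diet comparisons and the interaction called 0 members higher and 0 lower. The replicate block within each exposure gave 3 higher for the diet in room air, and 1 higher and 2 lower for the interaction, and changed no other call of the diet comparisons among members. With the number as a block across exposures, where it does not pair the libraries, 16 were higher and 25 lower with 60% fat, and 21 and 12 with 10% fat. Among members called in the deposited values, Uqcrh alone turned sign in a setting run, at 0.04 after length correction (not called) against −0.23 with 60% fat. The cause of these shifts was not tested. Both alternatives that leave out the libraries numbered 2 together or correct for length were added after seeing the data. Members under a few RPKM are limited by depth.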
